A study of Homo sapiens with 4 samples.

Results

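Averaged over all their usable probes, 515 autosomal promoter regions gave a lower anti-HA signal in cells induced for RPF-1 than in uninduced cells in every one of 4 arrays. They were 515 of 16166 autosomal design regions that could be measured (3.19%), out of 17200 autosomal and 18028 design regions in the files. A region was a member when the mean log2 ratio of its single-match probes was -0.25 or less, which is a ratio at least 1.19-fold lower, in each of arrays 1 to 4. At least 10 single-match probes were required, and every array was first centred on the median of its probes. Single-match probes are those with a value of 1 in the field named count, which the files do not define and which is read here as the number of genomic matches. The ratios of all 4 arrays chose the members, so their values are given as a description, with no test.

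Each array compared 2 immunoprecipitates of the same stable line, HEK/RPF-1 (HEK293/RPF-1 in other label fields), a derivative of the human embryonic kidney line HEK293 that carries an HA-tagged RPF-1. Induced cells (Tet-, where Tet is read as tetracycline) had spent 48 h in medium depleted of it, and the uninduced controls (Tet+) 48 h in its presence. Both were fixed with 1% formaldehyde, and both were precipitated with anti-HA antibody. The labels give induced DNA as Cy5 and uninduced DNA as Cy3 on all 4 arrays, so dye and condition cannot be told apart. The labels name 1 stable line and give no second clone and no cells without the transgene. The preparations carry the numbers 4 and 3 (induced and uninduced) for array 2, 10 and 7 for array 3, and 13 and 9 for array 4, and no numbers for array 1. File names place arrays 1 and 2 in an array series N39 and arrays 3 and 4 in a series N44. Only the ratio was used, so a lower signal in induced cells and a higher signal in uninduced cells cannot be told apart.

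RPF-1 is called a transcription factor by the series title, and the labels do not spell the name out. A promoter is the DNA around the start of a gene, where transcription factors bind and RNA polymerase begins. In a ChIP-chip experiment a bound tagged factor carries DNA into the precipitate, so binding raises the ratio over a stretch about as long as the sheared chromatin. A ratio below that of the typical probe means relatively less DNA recovered from that place, in a measurement that has no absolute zero.

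The members lay a little below the threshold more often than far below it. Their means over the 4 arrays ran from -0.27 to -0.99, with a median of -0.42, which is a 1.33-fold lower ratio. In 105 members the mean was -0.5 or less, in 14 it was -0.7 or less, and in 22 members each of the 4 arrays was at -0.5 or less. In array 1 the members ran from -1.16 to -0.25 with a median of -0.41. In array 2 they ran from -1.11 to -0.25 with a median of -0.45. In array 3 they ran from -0.84 to -0.25 with a median of -0.38, and in array 4 from -1.13 to -0.25 with a median of -0.40. Array 3 thus held the shortest lower tail, and it was the highest array in 192 of the 515 members, against 142, 66 and 115 for arrays 1, 2 and 4. Over all members together the array means averaged -0.44 ± 0.03 (SD, n = 4), beside 0.003 ± 0.017 for the 15651 other measured autosomal regions.

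**Figure D1:**
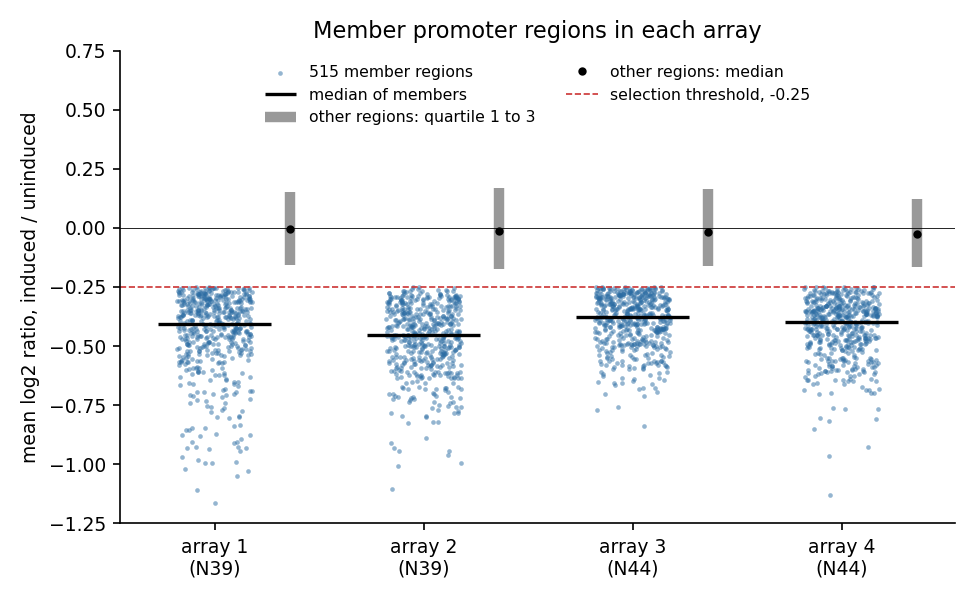
Mean log2 ratio of induced over uninduced cells for each member region (points, 1 per region) in arrays 1 to 4, with the median of the members as a black line and, beside them, the median and the interquartile range of the other autosomal regions. The members end at the dashed threshold of -0.25 by selection, and their lower tail is longest in array 1 and shortest in array 3.

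The lowest member lay on chromosome 1, positions 246176582 to 246179282, where arrays 1 to 4 gave -1.11, -0.95, -0.76 and -1.13 over 16 probes, a mean of -0.99 ± 0.17 (SD, n = 4) or a 1.98-fold lower ratio. A second member further along, positions 246288406 to 246291106, gave -1.16, -1.11, -0.68 and -0.97 over 15 probes, a mean of -0.98 ± 0.22. Array 3 was the highest array in both. Of the 10 lowest members, 6 were on chromosome 1 and 5 of these 6 were near its end. The 3 further ones there started at 245816084 (-0.81 ± 0.21), 246372872 (-0.78 ± 0.11) and 246823192 (-0.76 ± 0.22). These 5 values depended on the processing. With multi-match probes included, the members from 246176582, 246288406, 246372872 and 246823192 averaged -0.72, -0.64, -0.44 and -0.66. The member from 245816084 rested on 10 single-match probes, the fewest allowed. Its values were identical in this setting, as they must be in a region without multi-match probes. After the median of the other regions within 2 Mb was subtracted, the members from 246176582, 246288406, 245816084, 246372872 and 246823192 averaged -0.56, -0.55, -0.39, -0.35 and -0.33. All 5 thus stayed below 0, at smaller differences. The remaining chromosome 1 member, positions 150850710 to 150853410, lay elsewhere on the chromosome and gave -0.91, -0.62, -0.70 and -0.93 over 24 probes, a mean of -0.79 ± 0.15.

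The other 4 of the 10 lowest members were on 4 chromosomes. On chromosome 13, positions 48854529 to 48857229, the mean was -0.79 ± 0.21 over 11 probes. On chromosome 6, positions 50097107 to 50099853, it was -0.77 ± 0.17. On chromosome 4, positions 70894036 to 70896736, it was -0.73 ± 0.24. The last, on chromosome 9 at 104795283 to 104797983, had the largest spread of all members, since array 2 gave -1.01 with array 1 close to it, array 4 gave -0.70 and array 3 gave -0.27, for a mean of -0.74 ± 0.35. The next largest spreads also had array 3 closest to 0. One was on chromosome 2, positions 203706517 to 203709217, with -1.03, -0.94, -0.28 and -0.59, and the other on chromosome 1, positions 246265992 to 246268692, with -0.94, -0.91, -0.28 and -0.77.

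At the other extreme, the 4 arrays agreed within a few hundredths in members close to the threshold. On chromosome 20, positions 44751183 to 44753883, they gave -0.30, -0.32, -0.30 and -0.30, a mean of -0.30 ± 0.01. On chromosome 17, positions 29604208 to 29606908, the mean was -0.28 ± 0.01, and on chromosome 3, positions 161954489 to 161957189, it was -0.28 ± 0.01. The median SD over arrays was 0.092 in the members and 0.144 in the other regions. A limit that all 4 arrays have to pass also favours regions where they agree.

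The threshold cut through a continuous range of values. The member nearest to it by its highest array was on chromosome 21, positions 34908115 to 34911452, with -0.25 in array 1 and -0.44, -0.30 and -0.47 in the others. The next was a region of chromosome 11, positions 2845668 to 2848368, with a mean of -0.30, and then one of chromosome 5, positions 179568236 to 179570936, with a mean of -0.29. Just outside lay chromosome 13 at 94161890 to 94164590, with a mean of -0.29 and array 1 a fraction above the threshold. So did chromosome 19 at 12305002 to 12307702 (mean -0.36, array 3 just above) and chromosome 14 at 22354352 to 22357052 (mean -0.43, array 4 just above). No gap in the values separated members from non-members at the threshold.

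Across all autosomal regions, limma called 2404 lower (14.9%) and 1803 higher (11.2%) at an adjusted p of 0.05 with 4 arrays. The same ratios chose the members, so it is no support that all 515 were among the lower calls, with adjusted p between 9.4e-05 and 0.0133 (limma). Leaving out array 2 gave 954 lower and 773 higher regions, and leaving out array 4 gave 804 and 788. After the median of the regions within 2 Mb was subtracted, 1861 were lower and 2099 higher.

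When regions are picked by 3 arrays alone, their ratio in the remaining array is not fixed by the picking, although the rule itself used all 4 arrays. Of 745 regions at -0.25 or less in arrays 2, 3 and 4, array 1 was also at -0.25 or less in 69.1%, beside 16.7% of all autosomal regions in that array. For array 2 the share was 84.4% of 610 regions, beside 18.4%. For array 4 it was 77.3% of 666, beside 15.8%. Array 3 was lowest, at 54.3% of 948 regions beside 15.1%, and 433 regions missed membership through that array alone. Nearly all picked regions were at least below 0 in the array left aside, namely 98.0%, 99.5%, 87.2% and 99.7% for arrays 1 to 4, beside 52.4%, 53.4%, 54.3% and 56.6% of all autosomal regions. Low region means thus recurred in the array left aside, least in array 3. The regions that met the limit there were the same 515 members each time, so these shares are descriptions and no separate support for the members. Only region means were read in this way, not the pattern along a region.

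The same reading was made between the array series. Of 1463 regions at -0.25 or less in both N39 arrays, 35.2% were at -0.25 or less in both N44 arrays, beside 7.47% of all autosomal regions. Of 1208 regions picked by both N44 arrays, 42.6% met the limit in both N39 arrays, beside 9.05%. Within the 515 members, both N39 arrays lay below both N44 arrays in 155, and the reverse held in 58. The arrays share their dye assignment and probes, whose part in this recurrence was not tested.

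The lower ratio was spread along the average member. In the 468 members of 2700 bp, cut into windows of equal width, the mean ratio ran from -0.38 ± 0.01 and -0.38 ± 0.02 in the windows at the 2 ends to -0.49 ± 0.08 (SD over 4 arrays) in the central window. The other autosomal regions stayed between -0.033 and 0.018 in the same windows. In the 326 autosomal regions that were at 0.25 or more in every array, the central window stood at 0.63 ± 0.09 and the end windows at 0.44 ± 0.07 and 0.40 ± 0.05. In the members the window from -750 to -450 bp averaged -0.48 ± 0.02, close to the centre, and it was lower than the centre in arrays 3 and 4. The 2 sets differ in number and were chosen by the same ratios, so these profiles are descriptions.

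**Figure D2:**
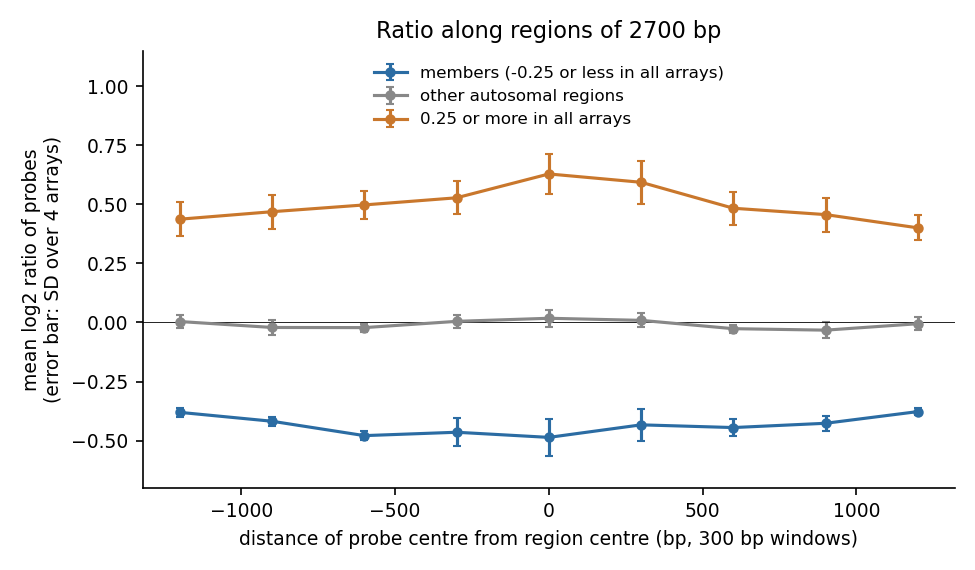
Mean log2 ratio of single-match probes in windows of equal width against the distance of the probe from the centre of its design region, for regions of 2700 bp, with error bars for the SD over the 4 arrays. The members stay between -0.38 and -0.49 in all windows, the other regions stay near 0, and the regions at 0.25 or more in every array rise to 0.63 in the centre.

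Within single members the probes were more scattered than this average profile shows. The median member had 80.0% of its probes below 0 (range 57.1 to 100%), beside 50.0% in the other regions, and 5 members had every probe below 0. The longest unbroken run of probes below 0 was 8 probes in the median member and 3 to 25 over all members. When each member was split at its centre, both sides were at -0.25 or less in 347 (67.4%) and both were below 0 in 483 (93.8%). In 168 members (32.6%) a single side was at -0.25 or less. A side without probes was counted as not meeting either limit, as in the chromosome 12 member from 86946807 and the chromosome 14 member from 35363147. Without its 3 lowest probes, 342 members (66.4%) still had a mean of -0.25 or less. These are means of each side over the 4 arrays, and single probes at 0 or above occurred in all but the 5 members counted above. The scatter of probes around their region mean was 0.63 in the members and 0.67 elsewhere (mean SD over arrays), and these deviations were shared between arrays to the same degree, with a median Pearson r of 0.49 over array pairs in both sets.

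Probes with several genomic matches were not used to choose the members, although they were read on the same arrays. In the members, 89 regions held 257 such probes, whose array means were -0.08, 0.08, 0.28 and 0.14, an average of 0.10 ± 0.15. In the other autosomal regions, 7447 such probes averaged 0.30 ± 0.09. Multi-match probes in members thus lay above 0 in 3 of 4 arrays, and below those of the other regions in all 4 arrays. With all probes included, 472 of the 515 members (91.7%) were still at -0.25 or less in every array. Only the 89 members that held such probes could change in this setting, so every loss fell among them. The share over all 515 therefore says little about how these 89 fared.

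The members were unevenly spread over the chromosomes. Chromosome 13 had 21 members among 296 regions (7.09%), chromosome 21 had 14 of 227 (6.17%), chromosome 8 had 33 of 595 (5.55%), chromosome 4 had 35 of 682 (5.13%) and chromosome 10 had 33 of 659 (5.01%). The lowest shares were on chromosome 20, with 4 members among 510 regions (0.784%), and chromosome 6, with 11 of 916 (1.20%). Chromosomes 12 and 11 followed with 1.77% and 1.80%. The chromosomes with few members stood higher as a whole, since all measured regions averaged 0.061 ± 0.029 on chromosome 20, 0.072 ± 0.024 on chromosome 12 and 0.042 ± 0.038 on chromosome 6. Those of chromosomes 13, 21, 4 and 10 averaged -0.065 ± 0.047, -0.067 ± 0.035, -0.089 ± 0.072 and -0.066 ± 0.027.

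**Figure D3:**
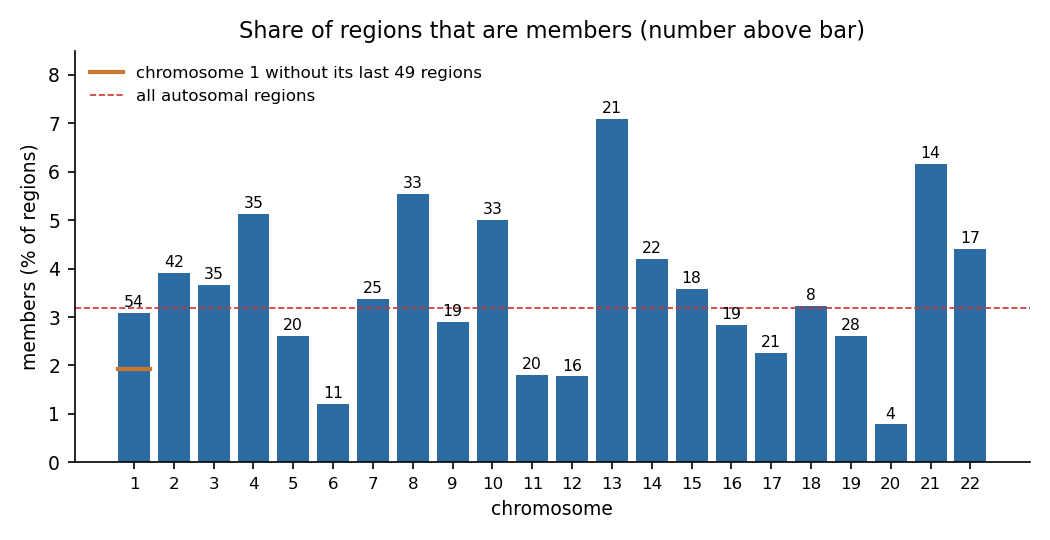
Percentage of the measured regions of each autosome that are members, with the number of members above each bar, the share over all autosomes (3.19%) as a dashed line, and the share of chromosome 1 without its last 49 regions (1.94%) as an orange line. Chromosomes 13 and 21 have the highest shares and chromosome 20 the lowest.

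Similar averages could go with different shares. Chromosomes 16 and 22 had similar means over all regions (-0.051 ± 0.029 and -0.069 ± 0.042), with shares of 2.83% and 4.40%. Chromosome 8 averaged only -0.040 ± 0.030 and still had a share of 5.55%. On this chromosome, 4 members lay among the 14 regions between 11 and 12 Mb.

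The end of chromosome 1 held the densest group. Of its last 49 measured regions, which start at 245016818 and end at 247167564, 21 were members (42.9%), and 48 of 49 had a mean below 0. The rest of chromosome 1 had 33 members among 1703 regions (1.94%). These 49 regions averaged -0.58, -0.47, -0.26 and -0.41 in arrays 1 to 4 (-0.43 ± 0.13). The 21 members averaged -0.79, -0.69, -0.46 and -0.60 (-0.63 ± 0.14), and the 28 non-members averaged -0.43, -0.31, -0.11 and -0.27 (-0.28 ± 0.13). Arrays 1 to 4 kept the same order in both, with array 3 closest to 0. Of the 50 lowest members of all autosomes, 14 came from this stretch.

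The 3 longest runs of members were 3 consecutive measured regions each, and 2 of these runs lay in that stretch. The run from 246265992 to 246375572 spanned 110 kb and averaged -0.83 ± 0.18. The run from 245942180 to 245990729 spanned 48.5 kb and averaged -0.61 ± 0.20, with single regions at -0.61, -0.55 and -0.66. After subtraction of the median within 2 Mb these 3 regions were at -0.18, -0.12 and -0.23, and the one from 246265992 was at -0.30. The third run lay on chromosome 17 from 10313101 to 10395904, spanned 82.8 kb and averaged -0.61, -0.51, -0.31 and -0.49 in arrays 1 to 4 (-0.48 ± 0.12), with single regions at -0.53, -0.50 and -0.41.

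Most members were not next to another member among the measured regions. There were 454 single members, 26 pairs of consecutive members and the 3 runs of 3, and 65 members (12.6%) had another member within 100 kb. As members were 3.19% of the measured regions, most would be single in any scattered order, so these counts are descriptions. Shares of members among neighbours, beside those around all autosomal regions, are given further below. Of the windows of 1 Mb, 340 held 1 member and 51 held 2. Outside the end of chromosome 1, the windows with the most members were on chromosome 5 from 140 Mb, where 5 of 62 regions were members, and on chromosomes 3, 8, 10 and 16, each with 1 window of 4 members. The window on chromosome 10 held 4 members among 10 regions, that on chromosome 3 from 10 Mb held 4 among 12, and that on chromosome 16 from 4 Mb held 4 among 19.

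The lowest pair outside the end of chromosome 1 was the one on chromosome 1 from 150837631 to 150853410, at -0.69 ± 0.12. On chromosome 2 a pair from 203706517 to 203812157 averaged -0.59 ± 0.18, and on chromosome 13 a pair from 20173281 to 20248257 averaged -0.56 ± 0.19. The pair with the shortest span, on chromosome 5 from 140740450 to 140748135, covered 7.68 kb and averaged -0.58, -0.65, -0.31 and -0.38 in arrays 1 to 4.

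Away from the end of chromosome 1, the outermost megabases of chromosomes were not rich in members. Within 1 Mb of the outermost measured region of a chromosome, 3.48% of regions were members, between 1 and 2 Mb 4.66%, and beyond 20 Mb 2.93%. Without the end of chromosome 1 the first 2 shares were 1.95% and 3.26%.

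Regions around the members were also low, by much less than the members themselves. Other measured regions with centres within 10 kb of a member averaged -0.060 ± 0.028 (SD over 4 arrays; 69 pairs), which is nearer to 0 than the averages at 10 to 1000 kb. Those at 10 to 25 kb averaged -0.107 ± 0.028, those at 50 to 100 kb averaged -0.076 ± 0.022, and those at 500 to 1000 kb averaged -0.066 ± 0.021. The values were nearer to 0 at 2 to 5 Mb (-0.043 ± 0.028) and at 5 to 10 Mb (-0.030 ± 0.030). Neighbours of all autosomal regions averaged between -0.011 and -0.0006 out to 500 kb. Of the members with a neighbour 10 to 25 kb away, 69.3% had a neighbour mean below 0, beside 52.1% of all autosomal regions. Neighbours of the 326 regions at 0.25 or more were on the other side of 0, at 0.091 ± 0.040 for 10 to 25 kb.

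**Figure D4:**
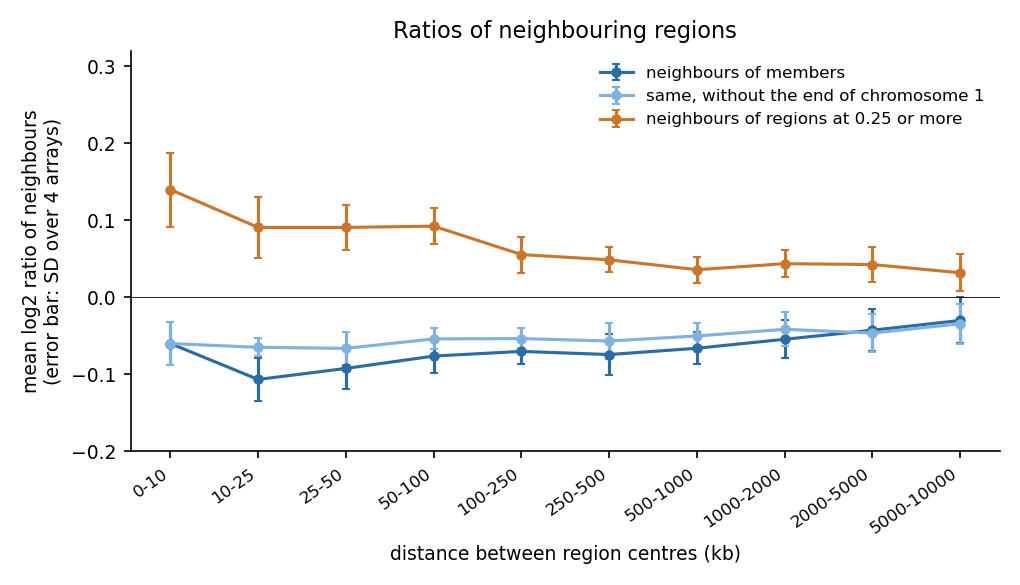
Mean log2 ratio of the other measured regions around members, around members without the end of chromosome 1, and around regions at 0.25 or more in every array, by distance between region centres, with error bars for the SD over the 4 arrays. Neighbours of members lie below 0 at every distance shown and neighbours of the higher regions above it.

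The end of chromosome 1 carried part of this. Without it, neighbours at 10 to 25 kb averaged -0.065 and those at 50 to 100 kb averaged -0.054. Between 10 and 50 kb, 10.5% (10 to 25 kb) and 10.4% (25 to 50 kb) of the neighbours were themselves members, and without the end of chromosome 1 these shares were 8.09% and 7.98%, beside the 2.78% and 2.85% around all autosomal regions. Within 10 kb, 2 of 69 neighbours were members, that is 2.90% beside 2.65%. These 2 are a pair of members counted from both sides, too few to compare the shares at the shortest distances. These values come from the contrast that chose the members and are descriptions.

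Most members stood below their surroundings, which the rule made likely, because autosomal regions in general averaged near 0. The differences are therefore descriptions. At least 3 other measured regions lay within 500 kb for 465 members. The mean of those regions was below 0 for 355 of them, at 0 or above for 110, and at -0.25 or less for 30. The same counts over all autosomal regions were not made. By distance class, the neighbour mean at 100 to 250 kb was below 0 for 70.8% of members with such neighbours, beside 54.5% of all autosomal regions. At 250 to 500 kb these shares were 69.7% and 54.6%. The difference between member and local mean had a median of -0.36, 389 members were lower by at least 0.25 and 58 by at least 0.5. After the median of the other regions within 2 Mb was subtracted in each array, 239 of the 515 members (46.4%) were still at -0.25 or less in all 4 arrays.

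The members furthest below their surroundings were scattered. On chromosome 4, positions 48680821 to 48683521, arrays 1 to 4 gave -0.67, -0.72, -0.47 and -0.65, while the 4 other regions within 500 kb averaged 0.24, a difference of -0.87. The chromosome 1 member from 150850710 followed, with a difference of -0.81 from a local mean of 0.017 over 31 regions. On chromosome 12, positions 49441927 to 49444627, the arrays gave -0.59, -0.68, -0.66 and -0.64, and the 11 surrounding regions averaged 0.15. On chromosome 11, positions 22603463 to 22606163, the member was at -0.65 ± 0.10 and its 4 surrounding regions at 0.12. The chromosome 13 member from 48854529 differed by -0.75 from its 10 surrounding regions.

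Of the 5 members least below their surroundings, 4 were at the end of chromosome 1. They started at 245016818 (a difference of -0.028 from a local mean of -0.33), 246615332 (-0.014), 247096952 (0.0091) and 247164864 (0.11), so the last 2 were no lower than the regions around them. With the median within 2 Mb subtracted, the member from 246615332 averaged -0.085, and the other 3 were at 0.082, 0.033 and 0.12. The fifth, on chromosome 8 from 9045116, was at -0.33 ± 0.05, beside a mean of -0.29 over 4 surrounding regions, and at -0.13 after that subtraction. Across the 21 members at the end of chromosome 1, the local mean ran from -0.50 to -0.31, and the median difference from it was -0.17.

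Members sat slightly further from other tiled regions than non-members, with a median gap to the nearest measured region of 41.4 kb beside 34.0 kb, and a median of 8 beside 10 other regions within 500 kb. A design region was 2700 bp long in 90.9% of the members and 88.2% of the others, and the longest member region was 4739 bp beside 8864 bp.

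Probes on these arrays differed in length. Designs of this kind commonly use longer probes where sequence is rich in A and T, to even out melting temperatures, and the files give the length and not the sequence of each probe. Mean probe length per region was 52.5 ± 1.9 bases (SD over regions) in the members and 52.1 ± 1.8 in the others, with medians of 52.1 and 51.8. Probes of 60 bases or more made up 7.83% of the probes in members and 6.32% elsewhere. Regions were ordered by mean probe length and divided into 10 classes of near-equal size. The share of members was 2.15% in the class with the shortest probes, 4.46% in the sixth and 4.33% in the class with the longest (3.51% without the end of chromosome 1). The share of regions at 0.25 or more in every array went from 0.798 to 3.03% over the same ends. The spread of the region means widened from 0.17 to 0.27 (SD over regions). Both shares were larger in the class with the longest probes than in the class with the shortest. The share of members was highest in the sixth class, also without the end of chromosome 1 (4.41%), and did not rise steadily with probe length.

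Among the members, those with long probes were the lowest. The members of the class with the longest probes averaged -0.55 and those of the class with the shortest averaged -0.36. Probe length and mean ratio had a Pearson r of -0.54 and a Spearman rho of -0.45 across the 515 members, and -0.47 and -0.40 across the 494 members outside the end of chromosome 1. Across the 15651 other autosomal regions they were 0.071 and 0.081, of the opposite sign. The members were limited to -0.25 or less by the same ratio, and the spread of ratios was wider where probes were long. These correlations are across regions that share arrays and are given without p. The 50 lowest members had a mean probe length of 55.0 bases, beside 52.2 in the other 465 members.

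**Figure D5:**
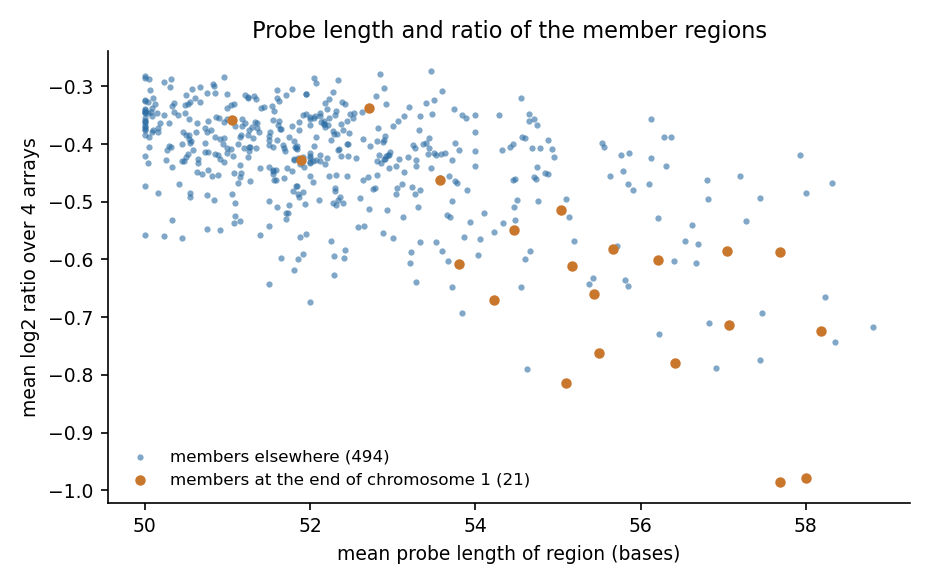
Mean log2 ratio over the 4 arrays against mean probe length for each member region, with the 21 members at the end of chromosome 1 in orange and the 494 others in blue. The lowest ratios occur among regions with long probes, and most of the orange points lie in that lower right part.

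This relation differed between the arrays. Within the members, r between probe length and ratio was -0.64, -0.51, 0.03 and -0.33 in arrays 1 to 4. Members of the class with the longest probes averaged -0.70, -0.61, -0.39 and -0.51 in the 4 arrays, and those of the shortest class averaged -0.35, -0.36, -0.36 and -0.37. The class mean of short-probe members was thus similar in all arrays, which does not make each such member alike across arrays. The class mean of long-probe members was lowest in array 1 and closest to 0 in array 3. Across all measured autosomal regions, r was -0.25, -0.13, 0.44 and 0.05, so the sign itself differed between array 1 and array 3. With array 1 as the only array read, regions at -0.25 or less differed from the rest by 1.34 bases in mean probe length, and with array 3 as the only one by -0.762 bases.

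The member with the longest probes, on chromosome 12 at 86946807 to 86949507, had a mean of 58.8 bases over 11 probes and gave -0.94, -0.80, -0.57 and -0.57. That on chromosome 22 at 15682082 to 15684782 had 58.3 bases and gave -0.59, -0.52, -0.25 and -0.51. Members where every probe had 50 bases lay on chromosome 16 at 4612653 to 4615353 (-0.46, -0.46, -0.29 and -0.28) and at 66462299 to 66464999 (-0.31, -0.34, -0.29 and -0.36), and on chromosome 17 at 24092972 to 24095672 (-0.38, -0.37, -0.40 and -0.33). In the last 2 the arrays lay close together.

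After the mean of each probe length was subtracted in each array, 511 regions met the limit, of which 437 were among the 515 members. Without array 3, the 948 regions at -0.25 or less in the other arrays had probes 1.19 bases longer than the rest, and without array 1 the 745 such regions had probes 0.0864 bases longer. The difference of 0.383 bases over all 4 arrays therefore depended on which arrays were used.

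Members also had fewer usable probes. The median was 20 single-match probes, beside 21, and the mean was 19.6 beside 21.3. Of regions with 10 to 14 probes, 6.12% were members, of those with 15 to 19 probes 3.40%, of those with 20 to 24 probes 2.70% and of those with 25 or more 2.54%. The spread of region means over the same classes fell from 0.24 to 0.18 (SD over regions), and the share of regions at 0.25 or more in every array fell from 2.62 to 1.44%. A mean over fewer probes is less precise, and its part in the higher share of members was not tested. With at least 15 probes required, 417 members remained.

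The genes of these promoters were not analysed here. The genome build of the coordinates is not given in the sources used here, and the reference tables at hand are on GRCh38. Positions are those of the files, and no sequence is printed for them.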

How the data were processed

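Per the file headers and source column, NimbleScan wrote the deposited values, the log2 ratio of Cy5 to Cy3 signal for each of 386230 probes per array. Each header gives a biweight mean, and the deposited medians lie near 0, so this mean is read as already subtracted. The log base is not written and was taken as 2. The sources used here give no NimbleScan version, background correction or build. Arrays are numbered in accession order.

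Each array was centred on its median. The 361766 single-match probes were averaged per design region where there were at least 10. Intercept-only fits with empirical Bayes moderation (limma 3.58.1, R 4.3.3, two-sided, Benjamini-Hochberg over 16831 regions of all chromosomes) were tested on simulated data. The labels do not tie the 4 arrays to separate cultures, and p-values then reflect only how these arrays vary, which may be technical. The number of arrays limits the precision. A sign-flip test over 4 arrays cannot give an exact p below 0.125, so none was used.

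The members, lists and settings were chosen with earlier results of these data known. Named regions follow a rule: the 10 lowest members, 3 on either side of the threshold, 5 furthest below and 5 least below their neighbours, runs of 3, and 3 at each extreme of probe length and spread. Runs of 2, the end of chromosome 1 and windows of 1 Mb were chosen after their values were seen.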

Additional observations from a re-analysis of the deposited data

Results flagged for a closer look

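Dixon's test was applied over the 4 arrays to 40 named regions and 2 means over members. Of these 42 values, 3 exceeded its 95% critical value, against 2.1 by chance (1 in 20) for values not selected. Many regions were named for their values or spread in these same arrays. That chance rate need not hold for them, and the flags are descriptions. In the chromosome 1 member from 246615332, array 1 stood apart at -0.80, with the rest between -0.46 and -0.39. In the one from 247164864, array 4 stood apart at -0.46, with the rest between -0.31 and -0.28. In the chromosome 20 member from 44751183, array 2 stood at -0.32 and the rest at -0.30, in a region whose 4 values differ by little. The cause was not tested.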

How the results depend on the processing

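The number of members was 885 at a threshold of -0.2 and 275 at -0.3, and 610 to 948 when a single array was dropped and the limit applied to 3 arrays. The other settings gave 352 to 592 members, the fewest after subtraction of neighbouring regions. With the median over probes, 357 of the 515 members (69.3%) met the limit. limma's lower and higher counts stayed within 1.5 times of 2404 and 1803, except when an array was dropped, where they ranged from 804 to 2599 and from 773 to 2016. The low counts came without array 2 (954 and 773) and without array 4 (804 and 788). Lower calls were 57.1% of all calls, 47.0% after subtraction of neighbouring regions and 67.3% with trend and robust moderation. The mean ratio within 100 kb of members was -0.077 ± 0.026, -0.108 to -0.064 with one array left out (-0.108 without array 3) and 0.0079 after subtraction of neighbouring regions, which removes it by construction. That subtraction also put 3 members at the end of chromosome 1 above 0, from 245016818 (0.082), 247096952 (0.033) and 247164864 (0.12). Members had longer probes under every setting, by 0.0864 to 1.19 bases with one array left out, while single arrays differed in sign. Leaving out the end of chromosome 1, chosen after seeing the data, left 494 members. Induced and uninduced DNA were hybridised together on each array, so each ratio is already a paired comparison. No further pairing was made, and the arrays form 1 group. Intensities were not used, so limits set by signal over background are not known.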
